A study of Mus musculus with 6 samples.

Results

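The proteasome is the barrel-shaped protease that degrades proteins tagged with ubiquitin, and its genes were followed here in mouse Lewis lung carcinoma cells given a mimic of the microRNA miR-291a-3p. The genes were taken by name: protein-coding rows with a symbol of the series Psma to Psmg followed by a number, and Pomp. The interferon-inducible catalytic subunits Psmb8, Psmb9 and Psmb10 were left out of the set. This gave 48 genes of the 24794 in the count table. They comprised 15 genes of the 20S core, 17 of the 19S regulatory particle, 6 in the class of activators and their inhibitor, 8 assembly chaperones, and 2 genes that share only the name pattern, Psmc3ip and Psme3ip1.

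Polyadenylated RNA was sequenced from 3 libraries of cells transfected with miR-291-3 mimics and from 3 libraries of cells transfected with a control mimic. Lewis lung carcinoma (LLC) is a transplantable mouse tumour line, and all 6 libraries come from it with no other treatment named. The series' design text gives the purpose as learning what overexpression of miR-291a-3p, a microRNA typical of embryonic stem cells, does to these cells. The labels do not state that replicate libraries were independent cultures. All p-values therefore reflect variation among these 6 libraries, and that variation may be technical.

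In the 20S core, outer rings of alpha subunits enclose inner rings of beta subunits, and Psmb5, Psmb6 and Psmb7 carry the constitutive catalytic sites. The 19S particle caps the core, binds ubiquitin chains, removes them and, through a ring of ATPases, unfolds the substrate and opens the gate of the alpha ring. Other caps compete for the same surface. They are PA28 alpha and beta (Psme1 and Psme2), which interferon gamma induces and which favour peptide production for antigen presentation, nuclear PA28 gamma (Psme3) and PA200 (Psme4). Dedicated chaperones build the particle: Psmg1 to Psmg4 and Pomp for the core, Psmd5, Psmd9 and Psmd10 for the base of the 19S particle.

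Libraries held 25376993 to 29058948 counts with the mimic and 28318155 to 32963986 with the control. The first principal component, 68.7% of the variance, separated the groups, and on it no library lay apart from its own group. On the second component mimic replicate 2 lay at -8.942, and mimic replicates 1 and 3 at 3.836 and 5.577. Control libraries lay at -3.605 to 2.495 there. Of the 5 epithelial markers, 4 had a row, and Krt8 stood at 545 to 562 CPM (counts scaled to sequencing depth) with the mimic and at 486 to 501 CPM with the control, while Epcam and Cdh1 stayed at or under 0.149 CPM in every library. The epithelial sum moved the same way as most proteasome genes, at 550 to 566 CPM with the mimic and 488 to 503 CPM with the control, and its part in the results was not tested. The summed levels of the other marker lists were 0.246 to 0.506 CPM with the mimic and 0.902 to 1.16 CPM with the control for alveolar type 2 cells, 1.65 to 1.95 and 1.87 to 2.69 CPM for leukocytes, 0.481 to 0.808 and 0.312 to 0.598 CPM for endothelium, and 53.5 to 57.1 and 53.2 to 59.1 CPM for fibroblasts. In the alveolar list 2 of 5 markers had a row and Napsa fell, in the leukocyte list 4 of 5, in the endothelial list 2 of 3, and in the fibroblast list 5 of 5, of which Pdgfrb rose and Pdgfra fell. The alveolar marker Sftpb was at 0 in the mimic libraries and at or under 0.0347 CPM in the controls, and Ptprc, the pan-leukocyte marker, was at 0 in each mimic library and at or under 0.139 CPM in the controls.

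The amount of the transfected microRNA was not read from these gene counts, so the labels alone say which libraries received it. The labels do not state the mimic's sequence. The mature mouse microRNA is shown here because its seed (bases 2 to 8, in capitals) gives the strings sought in the 3' UTRs below. It is written 5' to 3' as RefSeq holds it (GRCm38.p6, chr7:3218968-3218989, plus strand).
miR-291a-3p: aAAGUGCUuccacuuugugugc

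Few proteasome genes carried a match to that seed. In the longest 3' UTR that GENCODE M21 gives each gene (build GRCm38, whereas the deposited values rest on GRCm39), 6 of the 46 proteasome genes that could be searched had a match of at least 6 bases (13%), against 3837 of the 11576 tested genes (33.1%). Their 3' UTRs were also shorter, with a median of 312 bases against 1154. No proteasome gene held the 8mer AGCACTTA, which only 3.53% of the tested genes held. The 7mer AGCACTT occurred in 4 (8.7%, against 14% of the tested genes, counting each gene by its best match), Psma3, Psmd5, Psmf1 and Psmg3. The 6mer GCACTT was the best match in Pomp and Psme3 (4.35%, against 12.4%). Other parts of the messages, other transcripts and other kinds of pairing were not searched. These 6 sites are printed with their flanks, the match in capitals, as the seed matches found, and all lie in exonic 3' UTR sequence.
Psma3 site, chr12:70995785-70995813, plus strand: ccatccagtacAGCACTTgaaacaaaaac
Psmd5 site, chr2:34850790-34850818, minus strand: gccacagctccAGCACTTggtttcctgag
Psmf1 site, chr2:151716741-151716769, minus strand: agtaaataaatAGCACTTtataacctgtt
Psmg3 site, chr5:139823639-139823667, minus strand: gggtgtgcaggAGCACTTgtgggaagatt
Pomp site, chr5:147872399-147872426, plus strand: ccatcatcagtGCACTTtaaaacccggt
Psme3 site, chr11:101322800-101322827, plus strand: tcctctggcccGCACTTgtcttctccta

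None of the 6 genes with a match fell, where 24.8% of all tested genes fell, and a count over 6 genes carries little weight. Psma3, Psmf1, Pomp and Psme3 rose in the mimic libraries, by 0.17, 0.11, 0.20 and 0.25 on the log2 scale. Psmd5 and Psmg3, at -0.03 and 0.14, did not pass (edgeR, adjusted p = 0.326 and 0.128), but Psmd5 was called lower with total counts only (-0.089). The proteasome genes that did fall, Psme1 and Psme2, held no match in the annotated 3' UTR. A match is a description of the letters and not evidence of pairing.

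Most proteasome genes were slightly higher in the mimic libraries. Of 46 genes tested, 37 rose (80.4%) and 2 fell. A gene is called where its p from edgeR's quasi-likelihood test, adjusted after Benjamini and Hochberg over all 13779 tested genes, is under 0.05. Of all tested genes 24.3% rose and 24.8% fell, 49.1% in either direction. The median log2 change was 0.17, against -0.01 over all genes tested. Most increases were small: 9 of the 46 tested genes rose by at least 1.2-fold, against 7.61% of all tested genes. Among risen genes alone this was 9 of 37, against 1048 of 3349. By that much 1 of the 46 fell, against 13.6% of all tested genes. In 39 of the 46 genes every mimic library lay above every control library, a pattern seen in 27% of all genes, and in 2 every mimic library lay below, as in 27.9% of all. Together the 48 genes took 0.955%, 0.967% and 0.968% of the counts of the mimic libraries, against 0.892%, 0.886% and 0.894% of the control libraries. In bulk RNA, fewer cells that hold a transcript and less of it per cell cannot be told apart.

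Proteasome genes are well expressed, and well expressed genes as a class leaned upwards in these libraries. Among the 1862 genes with a mean of 100 to 600 CPM, a range chosen after the values were seen, 56.6% rose and 21.2% fell, with a median log2 change of 0.09. In that range 33 of 35 proteasome genes rose (94.3%) and none fell, with a median of 0.18. The choice of scaling also bears on changes this small. With total counts in place of TMM scaling, 17% of all genes rose and 32.3% fell, and the proteasome median was 0.11. In that setting 32 proteasome genes rose, all of them among the 37, and 5 fell.

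**Figure D1:**
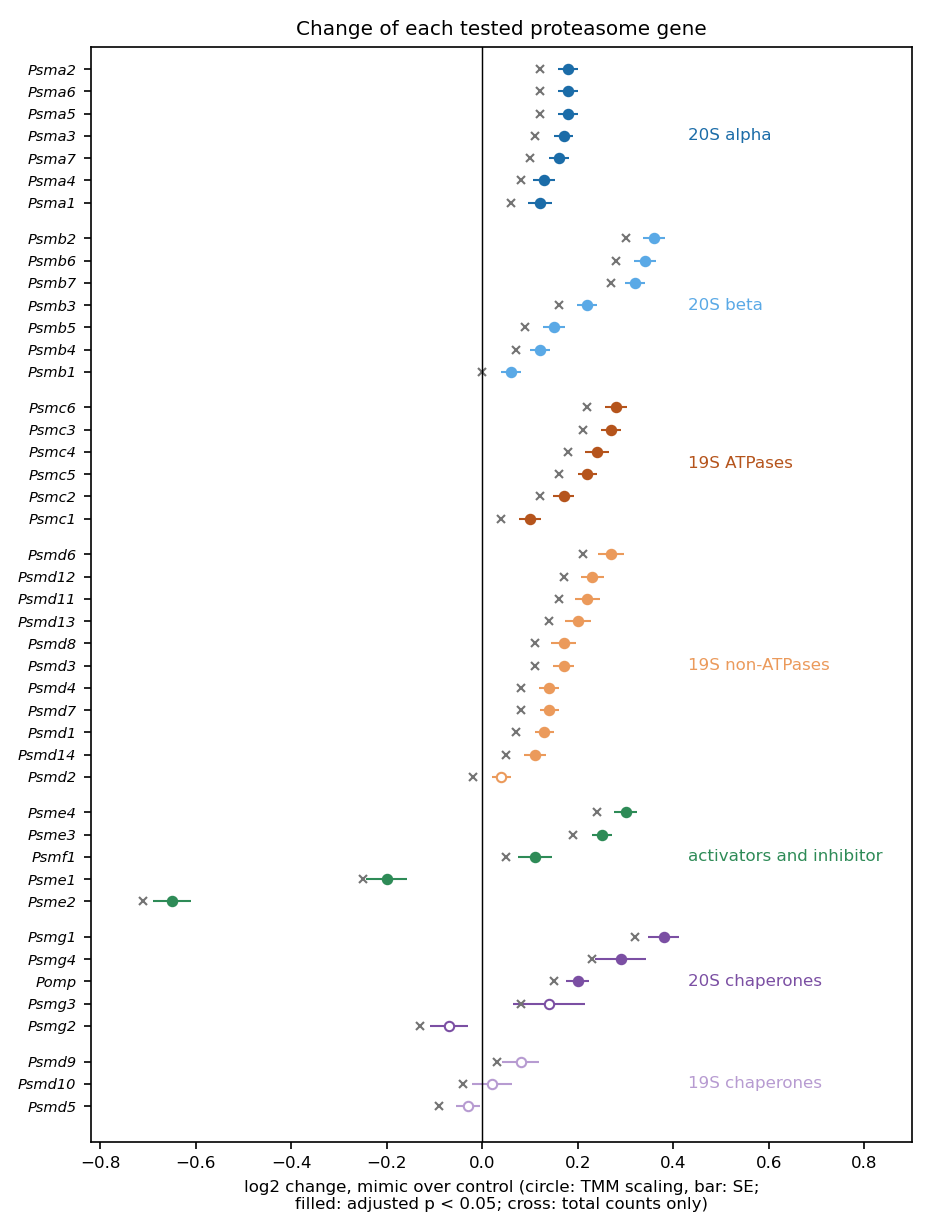
The log2 change (mimic over control) of each tested proteasome gene is plotted on the x axis, by role, with its standard error (3 libraries per group); filled circles passed the test and crosses give the value with total counts only, and the name-only genes are left out. The circles of the 20S and 19S genes lie between 0.04 and 0.36, and Psme1 and Psme2 lie at -0.20 and -0.65.

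**Figure D2:**
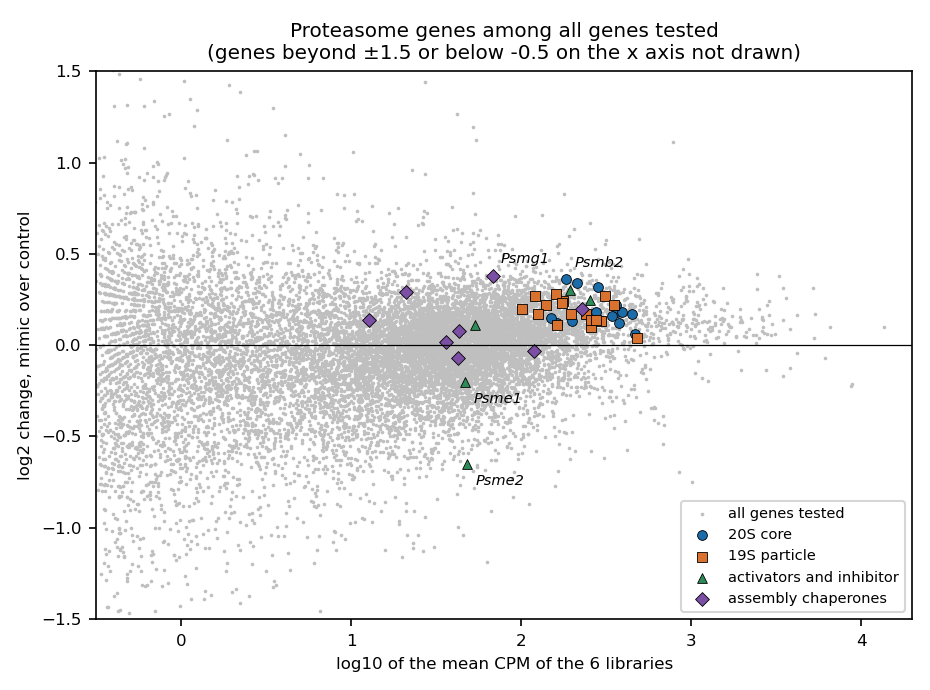
The log2 change (y axis) is plotted against the log10 of the mean CPM of the 6 libraries (x axis) for all genes tested (grey) and for proteasome genes coloured by role. Core and 19S genes lie together on the upper side of 0 at high CPM, while Psme2 lies at -0.65.

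All 14 tested genes of the 20S core rose, and in each of them every mimic library lay above every control library. Summed over the core, the level was 4415, 4506 and 4533 CPM in mimic libraries against 3952, 3926 and 3993 CPM in control libraries, a ratio of means of 1.133. The 7 alpha subunit genes moved within a narrow band of log2 changes, 0.12 to 0.18. The 7 tested beta subunit genes spread more widely, 0.06 to 0.36. With total counts only, 13 of the 14 rose. The exception was Psmb1.

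The largest changes of the core were in beta subunit genes. Psmb2 (ENSMUSG00000028837.9, chromosome 4), a structural beta subunit, had 205, 210 and 205 CPM in mimic libraries against 159, 162 and 162 CPM in control libraries. Psmb6 (ENSMUSG00000018286.7, chromosome 11), which carries the caspase-like site, had 233, 244 and 240 CPM with the mimic against 188, 186 and 193 CPM with the control. Psmb7 (ENSMUSG00000026750.7, chromosome 2), which carries the trypsin-like site, had 308, 318 and 314 CPM with the mimic against 254, 247 and 250 CPM with the control. In none of the 3 did the groups come near each other. Their log2 changes were 0.36 ± 0.023, 0.34 ± 0.023 and 0.32 ± 0.021 (SE), with adjusted p of 3.31e-14, 1.49e-13 and 6.85e-14 (edgeR). Psmb7 shares 405 exonic bases with Nek6 on the opposite strand, and although the libraries keep strand, the sources do not state whether the counting used it. Nek6 averaged 2365 counts with the mimic and 2397 with the control, against 8471 and 7720 for Psmb7.

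The third catalytic gene moved less. Psmb5, which carries the chymotrypsin-like site and is the main target of the drug bortezomib, had 156, 156 and 161 CPM in mimic libraries against 142, 143 and 143 CPM in control libraries. That is a log2 change of 0.15 ± 0.024 (SE, edgeR adjusted p = 7.28e-06), an increase of 10.6%, where Psmb6 and Psmb7 rose by 26.4% and 25.2%. The difference between catalytic genes was not tested.

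At the low end of the core stood Psmb1, a structural beta subunit gene. It had 467, 481 and 483 CPM with the mimic against 459, 458 and 458 CPM with the control, a log2 change of 0.06 (edgeR adjusted p = 0.0132). The groups did not overlap, but the call was lost with total counts only (log2 change 0.002), on the FPKM table (0.023) and without mimic replicate 3 (0.055). Psma1, an alpha subunit gene, had 162, 170 and 170 CPM with the mimic against 155, 153 and 156 CPM with the control. Psmb4, another structural beta subunit gene, had 382, 392 and 402 CPM with the mimic against 357, 357 and 365 CPM with the control. Both rose by 0.12 on the log2 scale and did so in each of the 14 alternative settings. The remaining core genes, Psma2 to Psma7 and Psmb3, rose by 0.13 to 0.22.

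Psmb11, the thymus-specific catalytic subunit gene, was not tested: it had a single count in 1 mimic library and none elsewhere.

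The 19S genes moved much like those of the core. Of its 17 genes 16 rose, none fell, and in all 17 every mimic library lay above every control library. The median log2 change was 0.17 in both complexes. The summed level was 4015, 4061 and 4036 CPM with the mimic against 3604, 3586 and 3599 CPM with the control, a ratio of means of 1.123. Set against the core in the same library, the 19S sum was 0.909, 0.901 and 0.89 times the 20S sum with the mimic and 0.912, 0.913 and 0.901 times with the control, so that the groups overlapped. With total counts only 14 of the 17 rose.

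**Figure D3:**
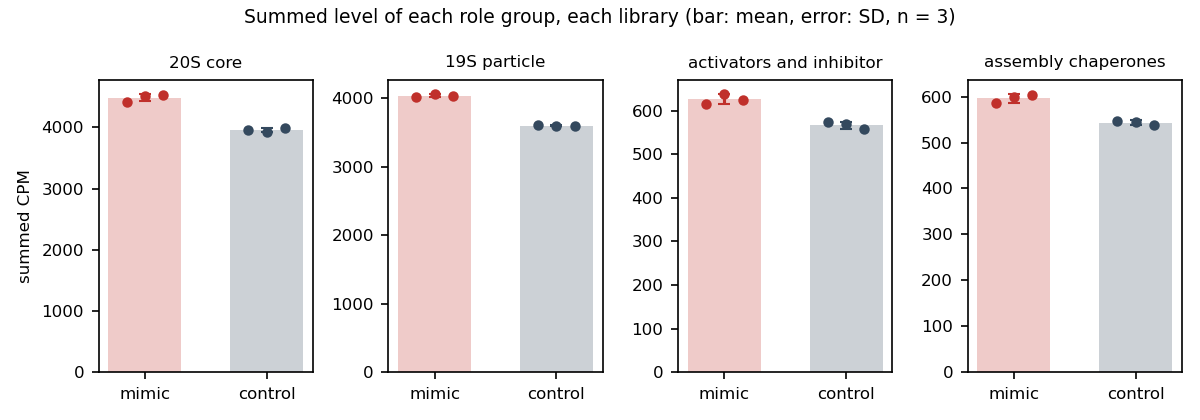
The summed CPM of each role group (y axis, from 0) is drawn for each library as a point, with the mean as a bar and the SD as an error bar (n = 3). In each of the 4 groups the mimic libraries lie above the control libraries, at 4415 to 4533 against 3926 to 3993 for the 20S core.

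The ATPases of the 19S base had a median log2 change of 0.23 and all 6 rose. Psmc6 (ENSMUSG00000021832.9, chromosome 14) had 173, 178 and 175 CPM with the mimic against 142, 146 and 145 CPM with the control, a log2 change of 0.28 ± 0.024 (SE, edgeR adjusted p = 2.28e-11). Psmc3 (ENSMUSG00000002102.16, chromosome 2) had 336, 344 and 336 CPM with the mimic against 284, 278 and 282 CPM with the control, a log2 change of 0.27 ± 0.021 (adjusted p = 2.52e-12). The groups were far apart for both. Psmc3 shares 215 exonic bases with Slc39a13 on the opposite strand, which averaged 1489 counts with the mimic and 1912 with the control. Psmc1, the ATPase gene that moved least, had 256, 272 and 266 CPM with the mimic against 245, 251 and 247 CPM with the control. Its groups did not overlap, but its log2 change of 0.10 was no longer called with total counts only (0.041) or on the FPKM table (0.061). Psmc2, Psmc4 and Psmc5 rose by 0.17 to 0.24.

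The non-ATPase genes of the base and lid had a median log2 change of 0.17, and 10 of 11 rose. Psmd6 (ENSMUSG00000021737.5, chromosome 14), a scaffold subunit of the lid, had 128, 130 and 134 CPM with the mimic against 111, 108 and 107 CPM with the control, a log2 change of 0.27 ± 0.027 (SE, edgeR adjusted p = 7.93e-10). Psmd14, the deubiquitinase of the lid that removes ubiquitin chains from substrates, had 168, 167 and 168 CPM with the mimic against 157, 155 and 154 CPM with the control. Its log2 change of 0.11 was not called with total counts only (0.050). Psmd1, a large scaffold subunit of the base, had 308, 307 and 305 CPM with the mimic against 277, 284 and 279 CPM with the control, a log2 change of 0.13. The groups did not overlap for any of the 3.

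Psmd2, the other large scaffold of the base, was the 19S gene that did not pass. It had 486, 495 and 485 CPM with the mimic against 478, 470 and 477 CPM with the control. All 3 mimic libraries lay above the controls, by little: the log2 change was 0.04 ± 0.019 (SE, edgeR adjusted p = 0.0738). The adjusted p fell below the threshold with the replicate number as a block (log2 change 0.041) and without mimic replicate 1 (0.051), and the sign turned with total counts only (-0.02, adjusted p = 0.54). The ubiquitin receptor gene Psmd4 rose by 0.14, and Psmd3, Psmd7, Psmd8, Psmd11, Psmd12 and Psmd13 rose by 0.14 to 0.23.

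The activators split. PA28 alpha and beta fell, while PA28 gamma, PA200 and the inhibitor gene Psmf1 rose. Psme2 (ENSMUSG00000079197.11, chromosome 14) had 36.2, 36 and 39.4 CPM in mimic libraries against 60.3, 58.7 and 56.7 CPM in control libraries. This log2 change of -0.65 ± 0.040 (SE, edgeR adjusted p = 1.69e-14) was the largest of any proteasome gene, in either direction. Psme1 (ENSMUSG00000022216.18, chromosome 14), which encodes the partner subunit of the same ring, had 43.2, 44.5 and 43 CPM with the mimic against 54.1, 48.9 and 47.1 CPM with the control. Its log2 change was -0.20 ± 0.043 (SE, edgeR adjusted p = 0.000287), and without control replicate 1, the highest of the 3 controls, it was -0.14 and still called. Both calls held in each of the 14 alternative settings.

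The partners did not fall in proportion. The ratio of Psme1 to Psme2 by CPM was 1.19, 1.24 and 1.09 in mimic libraries and 0.896, 0.832 and 0.832 in control libraries, with no overlap. Per length, by FPKM (fragments scaled to gene length and depth), it was 0.953, 0.988 and 0.872 with the mimic and 0.716, 0.665 and 0.664 with the control. Psme2b, which bears the name of a further copy of Psme2, had 1 count in each mimic library and 1 to 4 in each control library and was not tested. Psme1 shares 14 exonic bases with Emc9 on the opposite strand, a gene that averaged 34.7 counts with the mimic and 58.3 with the control, against 1178 and 1541 for Psme1.

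The other activator genes rose. Psme3, whose product forms a homomeric ring in the nucleus, had 273, 280 and 273 CPM with the mimic against 231, 235 and 230 CPM with the control, a log2 change of 0.25 ± 0.021 (SE, edgeR adjusted p = 2.36e-11). Psme4, the large single-chain activator PA200, had 207, 220 and 214 CPM with the mimic against 176, 175 and 171 CPM with the control, a log2 change of 0.30 ± 0.024 (adjusted p = 8.93e-12). The groups were well apart for both. Psmf1, which encodes the inhibitor PI31, had 55.9, 56.4 and 54.5 CPM with the mimic against 51.4, 50.7 and 52.4 CPM with the control. Its log2 change of 0.11 (edgeR adjusted p = 0.00912) was not called with total counts only (0.054) or on the FPKM table (0.067 with a pseudocount of 1).

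**Figure D4:**
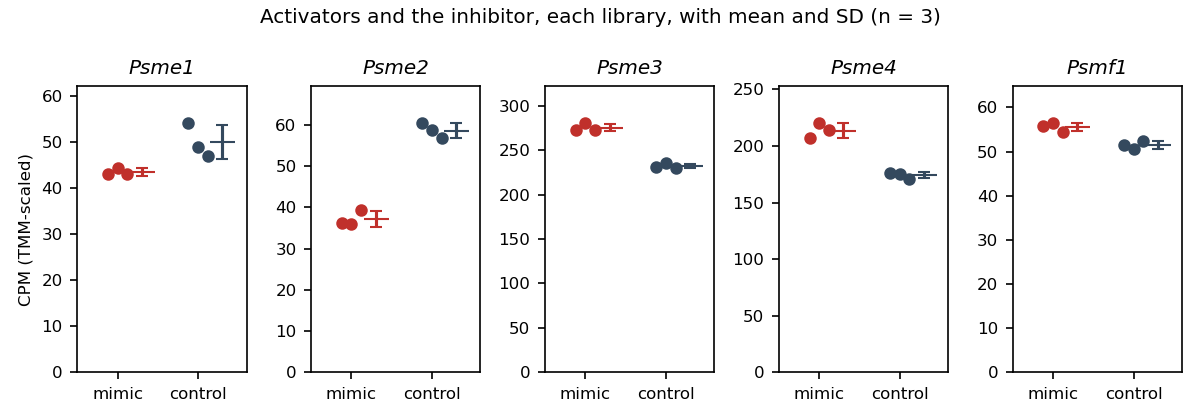
CPM (y axis, from 0) of the 4 activator genes and the inhibitor gene in each library, mimic left of control, with mean and SD (n = 3). Mimic points lie below control points for Psme1 and Psme2 (36 to 39.4 against 56.7 to 60.3 for Psme2) and above them for Psme3, Psme4 and Psmf1.

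Set against the core in the same library, the activators moved apart. Psme1 and Psme2 together stood at 0.018, 0.0179 and 0.0182 of the 20S sum with the mimic and at 0.0289, 0.0274 and 0.026 with the control, a ratio of means of 0.656. Psme3 stood at 0.0619, 0.0622 and 0.0602 of it with the mimic and at 0.0585, 0.0598 and 0.0576 with the control. Psme4 stood at 0.0469, 0.0489 and 0.0472 with the mimic and at 0.0446, 0.0445 and 0.0429 with the control. No group overlapped its counterpart, though the margins for Psme3 and Psme4 were narrow. The ratio of Psme3 to Psme2 in CPM, which is not corrected for gene length, was 7.55, 7.79 and 6.93 in mimic libraries and 3.83, 4 and 4.06 in control libraries.

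Among the interferon-inducible catalytic genes outside the set, Psmb8 and Psmb9 fell by 1.56 and 1.01 on the log2 scale (edgeR adjusted p = 1.83e-15 and 0.000372), while Psmb10, at 0.04, did not pass (adjusted p = 0.633). Set against the constitutive gene each replaces, and with no overlap of the groups in any case, Psmb8 had 28.5, 31.2 and 28.7 counts per 1000 Psmb5 counts with the mimic against 96.8, 100 and 92.9 with the control, Psmb9 had 4.47, 4.89 and 2.64 per 1000 Psmb6 counts against 11.3, 8.37 and 10.7, and Psmb10 had 52.3, 51.8 and 60.3 per 1000 Psmb7 counts against 62.1, 73 and 65.5. For Psmb10 the margin was narrow (60.3 against 62.1), its own CPM groups overlapped, and Psmb7 rose. The Psmb9 values rest on 26, 33 and 18 counts with the mimic and 64, 45 and 69 with the control, and the Psmb9 call held in 13 of the 14 alternatives.

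Promoters were read for genes at both ends of this range, Psme1 and Psme2 as the fallen pair and Psmb6 and Psmg1 as strongly risen genes of the core and of its chaperones. The windows run from 250 bases before to 50 bases after the start (RefSeq, GRCm38.p6), and 41 of the 48 genes had such a window. Capitals mark TGANNNNGC and a doubled GAAA, both sought on both strands. TGANNNNGC is a loosened form of the core of the antioxidant response element that NRF1 and NRF2 bind. A match to it need not fit that element. The doubled GAAA, that is GAAA, any pair of bases and GAAA again, is the core of the element that interferon regulatory factors bind. A gene with several starts counts once, and Psme2 is shown from its outermost start.
Psme1 promoter, chr14:55578244-55578543, plus strand: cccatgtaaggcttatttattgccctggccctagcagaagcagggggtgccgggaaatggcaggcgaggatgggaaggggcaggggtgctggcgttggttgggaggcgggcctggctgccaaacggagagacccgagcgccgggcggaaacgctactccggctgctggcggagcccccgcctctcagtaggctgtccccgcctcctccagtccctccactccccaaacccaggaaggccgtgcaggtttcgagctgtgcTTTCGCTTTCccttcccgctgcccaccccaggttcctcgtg
Psme2 promoter, chr14:55591052-55591351, minus strand: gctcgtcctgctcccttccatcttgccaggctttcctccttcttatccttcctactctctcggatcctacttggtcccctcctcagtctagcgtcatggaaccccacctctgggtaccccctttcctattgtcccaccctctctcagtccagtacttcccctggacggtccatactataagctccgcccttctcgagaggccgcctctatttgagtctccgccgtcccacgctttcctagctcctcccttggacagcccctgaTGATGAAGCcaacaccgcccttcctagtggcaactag
Psmb6 promoter, chr11:70525107-70525406, plus strand: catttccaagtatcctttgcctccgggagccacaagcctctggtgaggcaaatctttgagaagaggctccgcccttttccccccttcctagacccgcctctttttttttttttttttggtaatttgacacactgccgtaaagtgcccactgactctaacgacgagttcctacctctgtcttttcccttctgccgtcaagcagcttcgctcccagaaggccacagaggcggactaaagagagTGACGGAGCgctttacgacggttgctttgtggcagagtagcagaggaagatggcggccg
Psmg1 promoter, chr16:95990911-95991210, minus strand: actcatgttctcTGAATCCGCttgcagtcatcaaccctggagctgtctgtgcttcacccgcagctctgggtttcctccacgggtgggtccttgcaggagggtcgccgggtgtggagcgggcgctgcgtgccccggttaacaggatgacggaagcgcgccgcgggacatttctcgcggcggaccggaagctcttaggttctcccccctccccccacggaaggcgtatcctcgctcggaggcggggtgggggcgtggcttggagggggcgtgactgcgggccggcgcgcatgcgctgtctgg

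TGANNNNGC is a common string: 23 of the 41 proteasome windows held it (56.1%), against 47.7% of 9777 tested genes with a window. The 41 include Psmb11 and Psme2b, which were not tested, and the name-only genes Psmc3ip and Psme3ip1. Of these, Psmb11, Psmc3ip and Psme3ip1 held TGANNNNGC. The risen genes Psmb2, Psmb7 and Psmc3 had no window. The doubled GAAA occurred in 5 of 41 windows (12.2%), those of Psmb3, Psmd4, Psmd9, Psme1 and Psmg4, against 3.49% of all. In Psme1 it lies on the minus strand at bases 260 to 269 of the window, and Psme2 had no such string there. CCAAT was in 15 of 41 windows (36.6%), against 43.6% of all. Genes with the doubled GAAA were found among those that rose (Psmb3, Psmd4, Psmg4), that fell (Psme1) and that did not pass (Psmd9).

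Of the 5 chaperone genes of the core, Psmg1, Psmg4 and Pomp rose, and Psmg2 and Psmg3 did not pass. Differences between partners were not tested. Psmg1 (ENSMUSG00000022913.17, chromosome 16) had 75.2, 77.1 and 77.7 CPM in mimic libraries against 59.7, 58.5 and 58.6 CPM in control libraries, a log2 change of 0.38 ± 0.032 (SE, edgeR adjusted p = 1.82e-11) and the largest increase of any proteasome gene. Psmg2 (chromosome 18), whose product pairs with that of Psmg1 to hold the alpha ring, had 43.3, 39.9 and 41.9 CPM with the mimic against 44.6, 43.4 and 43.2 CPM with the control. Mimic replicate 1 lay within the control range and the other two mimic libraries below it, and the Psmg2 log2 change of -0.07 did not pass (edgeR adjusted p = 0.149), although it was called lower with total counts only (-0.127) and on the FPKM table (-0.101 with a pseudocount of 1).

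Psmg4 (ENSMUSG00000071451.11, chromosome 13), of the second chaperone pair, had 23.1, 22.8 and 23.4 CPM with the mimic against 19.4, 18.7 and 18.8 CPM with the control, a log2 change of 0.29 ± 0.053 (SE, edgeR adjusted p = 3.72e-05). Its partner gene Psmg3 had 12.4, 13.2 and 14.4 CPM with the mimic against 12.4, 12.9 and 11.1 CPM with the control. The Psmg3 groups overlapped and its log2 change of 0.14 did not pass. Psmg3 shares 280 exonic bases on the same strand with the gene model Gm26938, which averaged 231 counts with the mimic and 236 with the control, against 361 and 373 for Psmg3, so its level is uncertain. Pomp, the maturation factor that joins the beta subunits into the growing core, had 235, 250 and 246 CPM with the mimic against 216, 213 and 207 CPM with the control. It rose by 0.20 on the log2 scale (edgeR adjusted p = 2.17e-08).

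None of the 3 chaperones of the 19S base passed. Their summed level was 197, 197 and 200 CPM with the mimic and 196, 198 and 199 CPM with the control, a ratio of means of 1.001. Psmd5, which holds the 7mer match, had 118, 117 and 117 CPM with the mimic against 117, 121 and 122 CPM with the control, a log2 change of -0.03 that was called lower with total counts only (-0.089). Psmd10, known as gankyrin, and Psmd9 had log2 changes of 0.02 and 0.08 (edgeR adjusted p = 0.756 and 0.083), and Psmd9 was called higher without mimic replicate 1 (0.112). The summed level of the core's own chaperones was 389, 403 and 403 CPM with the mimic against 352, 346 and 339 CPM with the control, with no overlap.

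Of the 2 genes that share only the name, neither is a subunit. Psme3ip1, named for an interaction with PA28 gamma, had 63.7, 64.8 and 62.3 CPM with the mimic against 60.2, 57.5 and 58.4 CPM with the control, and its log2 change of 0.12 was not called with total counts only (0.059). Psmc3ip, a factor of meiotic recombination, had 22.1, 18.5 and 20 CPM with the mimic against 22.9, 22.1 and 21.5 CPM with the control. Its groups overlapped and its log2 change of -0.14 did not pass (edgeR adjusted p = 0.0588), although it was called lower in 6 of the 14 alternatives, total counts only among them (-0.193). It shares 385 exonic bases with Mlx on the opposite strand, which averaged 1335 counts with the mimic and 1700 with the control, against 544 and 683 for Psmc3ip.

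Levels per length spanned a wide range although the subunits of a complex are present in equal numbers in the assembled particle. By FPKM, averaged over the 6 libraries, the 14 tested core genes ran from 47.8 (Psma1) to 279 (Psma6) and the 19S genes from 19.1 (Psmd11) to 222 (Psmc5). Psma6 averaged 293 FPKM in mimic libraries and 266 in control libraries, Psma5 254 and 230, and Psmc5 236 and 208. At the low end of the subunits, Psmd11 averaged 20.3 FPKM with the mimic and 17.9 with the control. The chaperones ran from 3.86 FPKM (Psmg3) to 44.1 (Psmg1). These levels depend on the gene lengths the authors used, which the sources do not state.

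PA28 beta changed place in this order. Psme2 averaged 18.2 FPKM with the mimic and 29.5 with the control, and Psme1 17.1 and 20.1, so that Psme2 was above Psme4 (22.1 and 18.4) in control libraries and below it in mimic libraries. Neighbours in the middle of the order lay close together: Psmc6, Pomp, Psmd6 and Psmd8 averaged 43.4, 40.4, 40.4 and 37.7 FPKM with the mimic and 36.7, 36, 34.4 and 34.4 FPKM with the control, and Pomp and Psmd6 did not differ beyond their spread in mimic libraries (SD 1.54 and 0.839).

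**Figure D5:**
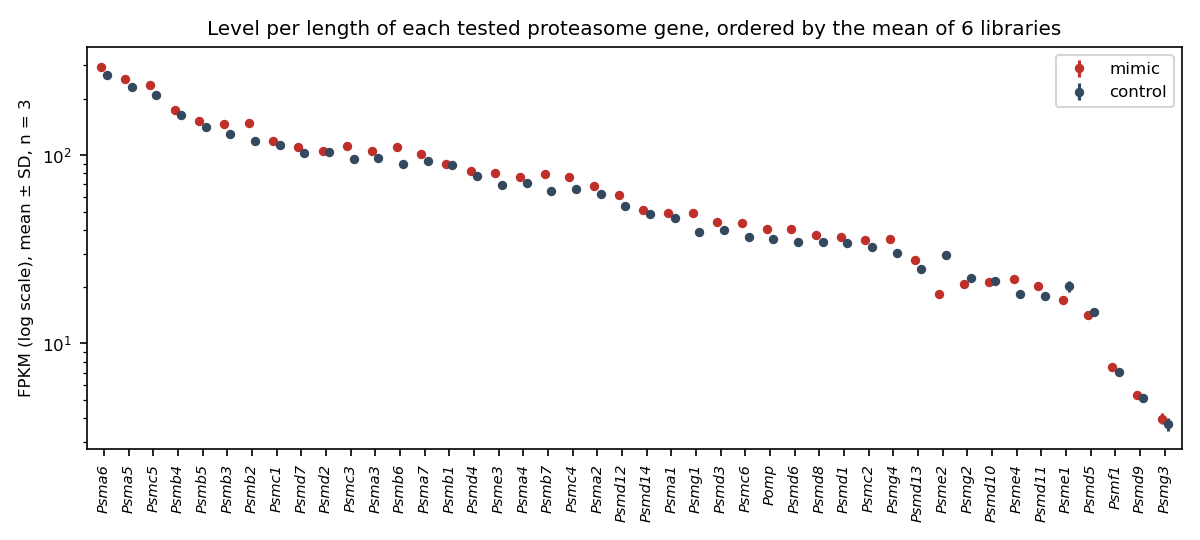
FPKM (log scale, y axis, mean ± SD, n = 3) of each tested proteasome gene, mimic and control side by side, ordered along the x axis by the mean of the 6 libraries. Levels run from 279 (Psma6) to 3.86 (Psmg3), and Psme2 (18.2 with the mimic, 29.5 with the control) shows the widest separation with the mimic below.

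Other genes of the ubiquitin and proteasome pathway were about as often higher as other genes of similar CPM. Of the 38 genes tested from a list of 39, 23 rose (60.5%) and 6 fell (15.8%), with a median log2 change of 0.11, where 56.6% of all genes at 100 to 600 CPM rose and 21.2% fell, with a median of 0.09. The list's own median level was 116 CPM. The 2 scalings split them differently, since with total counts only 17 rose and 8 fell. The 19S subunit genes Adrm1 and Sem1, which the name rule leaves out, rose by 0.19 and 0.17, and Ecpas, which encodes an adaptor that tethers the 19S particle to the core, by 0.24. Ecpas had 165, 165 and 161 CPM with the mimic against 139, 138 and 138 CPM with the control, and Maff, a small partner of the NRF factors, had 37, 38 and 41 CPM against 32.6, 31.8 and 31.8 CPM. Neither pair of groups overlapped. Of the other small MAF genes, Mafk rose by 0.24 and Mafg fell by 0.08 on the log2 scale (edgeR adjusted p = 0.00031 and 0.0291), the call on Mafg holding in 8 of the 14 alternatives. Ubqln2, a ubiquitin shuttle gene, and Ubxn1, a cofactor gene of the segregase Vcp, fell by 0.16 and 0.07.

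Ubb, which encodes ubiquitin as tandem repeats, was among the genes that rose. It had 1050, 1097 and 1080 CPM in mimic libraries against 874, 861 and 887 CPM in control libraries, a log2 change of 0.30 ± 0.019 (SE, edgeR adjusted p = 3.47e-14). The groups did not overlap. Its repeats closely resemble the ubiquitin units of other genes, so reads may be split among them and the value carries that uncertainty.

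The transcription factor NRF1, encoded by Nfe2l1, is known to raise proteasome genes when proteasome activity is short, and NRF2, encoded by Nfe2l2, drives antioxidant genes and some proteasome subunits. Nfe2l1 had 104, 107 and 104 CPM with the mimic against 89.9, 88.7 and 93.5 CPM with the control, a log2 change of 0.21 ± 0.029 (SE, edgeR adjusted p = 2.62e-07). Nfe2l2 had 109, 112 and 111 CPM with the mimic against 124, 126 and 124 CPM with the control, a log2 change of -0.18 ± 0.026 (SE, edgeR adjusted p = 1.18e-06). The groups did not overlap for either gene. Ddi2, which encodes the protease that activates NRF1, rose by 0.17, and Ngly1, which encodes the deglycosylase that processes it, had a log2 change of 0.16 that did not pass (edgeR adjusted p = 0.059). Klhl7, an adaptor of a cullin ubiquitin ligase, had 27.3, 27.1 and 25.9 CPM with the mimic against 29.9, 30.4 and 30.6 CPM with the control, a log2 change of -0.18 ± 0.047 (SE, edgeR adjusted p = 0.00174).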

How the data were processed

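Titles assigned 3 libraries to the mimic group and 3 to the control group. Per the labels' protocols, strand-specific paired-end libraries were made from bead-captured mRNA. Per the submitters' processing notes HISAT2, DESeq2 and GRCm39 were used, while neither the program that counted reads, nor its use of strand, nor the gene annotation is stated there. As deposited by the authors, the files hold whole-number read counts for 24794 genes and FPKM values for 24494. Symbols with _ were read with a hyphen.

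Counts were tested in edgeR 4.0.16 (filterByExpr, TMM, estimateDisp, glmQLFit, glmQLFTest, R 4.3.3), with Benjamini-Hochberg adjustment over the 13779 genes that passed, threshold 0.05. CPM values use TMM-scaled library sizes, and SEs of log2 changes are their size over the square root of F. Precision is that of 25376993 to 32963986 counts per library. Same-group libraries differed by more than sampling noise (mean chi-square per gene 1.86 to 2.22). Alternatives tried: leaving out each library, blocking on replicate number, an adjusted p under 0.01, total counts or DESeq2 size factors for TMM, DESeq2 1.42.0 itself (Wald), limma 3.58.1 on log2 of FPKM plus 1 or plus 0.1, and dropping the filter or asking for 2 CPM in 3 libraries.

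The members, lists and the rule for named genes were chosen with earlier results of these data known. The rule gives values per library for the 3 largest and 3 smallest called changes of each role group, all activators, called chaperones and members against their group's direction. Psmb5, Psmd2, Psmg3, Adrm1, Sem1, Ddi2, Ngly1, Mafk, Mafg, Ubqln2, Ubxn1 and other members named with values were chosen after their values were seen. Simulated mimic against control counts with known changes (13637 genes tested) gave 65.7% of genes changed 1.2-fold, 83.1% changed 1.5-fold and 92.3% changed 2-fold as called, and called 9 of 13440 unchanged genes. Paaf1, a list gene, was not analysed here, and a list gene that the rule would name is not reported here. Promoter and microRNA sequences are RefSeq's (GRCm38.p6), 3' UTRs GENCODE M21's.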

Additional observations from a re-analysis of the deposited data

How the results depend on the processing

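The number of risen proteasome genes was 32 to 38 under the settings that keep all 6 libraries (37 as reported) and 36 to 39 with a library left out. Of the 39 called genes, 34 kept their call in all 14 alternatives. The number of fallen genes was 2 to 3 with a library left out, 5 with total counts only (Psmc3ip, Psmd5 and Psmg2 added) and 4 on the FPKM table with either pseudocount. The median log2 change of the 20S core (0.173) was 0.116 with total counts only, 0.136 with limma on log2(FPKM + 1), 0.137 with a pseudocount of 0.1, and 0.165 to 0.180 with a library left out. That of the 19S particle (0.172) was 0.115, 0.133 and 0.136 in the same order, and 0.171 to 0.188 with a library left out. That of the activators and inhibitor (0.110) was 0.054, 0.067 and 0.075, and 0.099 to 0.130 with a library left out. That of the assembly chaperones (0.111) was 0.055 with total counts only and 0.058 with limma on log2(FPKM + 1), and 0.073 (without mimic replicate 3) to 0.152 (without mimic replicate 1) with a library left out. In the pathway list 22 to 23 rose and 5 to 6 fell with a library left out, and Uba1 (log2 change 0.01, not called) turned to -0.045 and was called with total counts only. With total counts the median over all genes was -0.06 in place of -0.01; the cause of the other differences was not tested. Same-numbered libraries deviated together by correlations of 0.0322, 0.0715 and 0.0561 only, so the numbers were not taken to pair the samples, although each mimic library correlated best with its own number. With the replicate number as a block 38 proteasome genes rose and 3 fell, Psmd2 and Psmc3ip being added. In simulated counts 65.7% of genes changed 1.2-fold were called, so some changes of that size can be missed at this depth. The share itself need not hold for proteasome genes. The simulation held 67, 65 and 65 genes changed 1.2-fold, 1.5-fold and 2-fold, drawn from all levels, whereas 49.1% of genes were called in the data.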

Other observations

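Psme1 and Psme2 lie close together on chromosome 14, at 55578494 to 55581527 and 55587440 to 55591101 (GRCm38.p6, RefSeq), with Emc9 between them. Emc9, an expressed gene at 1.29 CPM with the mimic and 1.88 CPM with the control, had a log2 change of -0.55 (edgeR adjusted p = 0.02005). On the far side of Psme2, Rnf31, which encodes a subunit of the linear ubiquitin chain ligase, fell by 0.29 on the log2 scale (edgeR adjusted p = 0.02002), while Irf9, a subunit of an interferon-activated transcription factor, had a log2 change of -0.05 that did not pass (adjusted p = 0.6604, edgeR). Beyond Irf9, Ipo4 had a log2 change of -0.009 that did not pass and Tm9sf1 fell by 0.18. On the far side of Psme1, Dcaf11 had a log2 change of 0.11 that did not pass and Pck2 fell by 0.37. Nrl, Fitm1 and Rec8, in the same stretch, were not among the tested genes. Of all tested genes 24.8% fell, and whether neighbours moved together was not tested. The proteasome genes Psmb5, Psmc6 and Psmd6, elsewhere on the same chromosome, rose by 0.15, 0.28 and 0.27.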
